A study of Homo sapiens with 4 samples.

Results

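The clustered protocadherins were examined in HEK293 cells, a transformed line from human embryonic kidney that carries adenovirus DNA and is labelled as a normal cell type. Members were all genes whose symbol begins with PCDHA, PCDHB or PCDHG and whose RefSeq accession has probes on the array. This gave 53 members of 17217 named genes, with 15 genes in the alpha cluster, 16 in the beta cluster and 22 in the gamma cluster. They are all 53 protein-coding genes that the RefSeq table lists under these symbols, while none of its 6 pseudogenes had probes. The cells were untreated and grown in serum-containing medium, and RNA from 4 separate cultures was hybridised, each to 1 single-colour NimbleGen array. The 4 arrays form 1 group, so no conditions are compared. The values describe this line as grown, as a bulk RNA sample of 1 transformed cell type.

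Clustered protocadherins are cell-surface cadherins best known from neurons, where each cell switches on its own small choice of them. Their extracellular parts bind the same isoform on a facing membrane, which lets the branches of 1 neuron recognise and avoid each other. In the alpha and gamma clusters every member has a variable exon with its own promoter, spliced to constant exons that encode a shared cytoplasmic end. Beta members have the variable exon alone. The C-type members, which lie next to the constant exons, are known for more constant expression than the alternate members. The insulator protein CTCF, the cohesin ring and DNA methylation are known to control promoter choice.

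The annotation shows this layout. All 15 alpha genes end at 1 shared base, all 22 gamma genes end at another, and no beta gene shares its end with a neighbour. Promoter sequences were available for 47 members, from RefSeq on assembly GRCh38.p14, each covering the 250 bases before the gene start and a short stretch after it. No entry was used for PCDHA3, PCDHA13, PCDHB6, PCDHB11, PCDHGA12 and PCDHGC5. The core of the element that clustered protocadherin promoters share is CGCT. It was found on the forward strand, starting 35 to 100 bases before the gene start, in 43 of the 47 members, against 20.2% of all 35116 promoters. The exceptions were PCDHA9, PCDHB5, PCDHB8 and PCDHGB2. This window of positions was chosen after the sequences had been seen. Here and for the motifs below, a member counted where any of its promoter sequences matched, and 5 members had 2. The shares of all promoters count single sequences. On either strand of the whole sequence 46 of 47 members and 70.0% of all promoters held these letters.

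The following 30-base stretches, all on the forward strand upstream of the gene named, show the core in capitals. They were picked to hold both members above the baseline, their neighbours and examples of each cluster.

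PCDHA1, chr5:140786084-140786113: acattggccacatgatgtCGCTgtacacca
PCDHA8, chr5:140841128-140841157: tttgaagccacatgatgtCGCTgtctacca
PCDHA12, chr5:140875242-140875271: taatcagtcacatgatgtCGCTctacactc
PCDHAC2, chr5:140966363-140966392: ggctgagcagtccgggttCGCTgtccgcca
PCDHB2, chr5:141094542-141094571: ggaagagacgcggggtggCGCTgcagcctt
PCDHB13, chr5:141213863-141213892: tgtgaggacgcgtggtggCGCTgcaggata
PCDHB15, chr5:141245312-141245341: aaagacaacgcatggtggCGCTgcaggcta
PCDHGA8, chr5:141392566-141392595: atttaggactgtaagcgcCGCTgttcacct
PCDHGB4, chr5:141387615-141387644: agtgctgactctgggcgcCGCTgttggcca
PCDHGB5, chr5:141397861-141397890: agtgctgactctgggcgcCGCTgttggcca
PCDHGC3, chr5:141475878-141475907: ggctgggactctgtgtgcCGCTgtcggcca
PCDHGC4, chr5:141484950-141484979: ttggctgagcccgggagcCGCTgtctgcca

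The letters around the core differed between the clusters. GATGTCGCT was found in 9 of 13 alpha members, in no beta or gamma member and in 0.105% of all promoters. The alpha members without it were PCDHA9, PCDHA11, PCDHAC1 and PCDHAC2. GGTGGCGCT was found in 13 of 14 beta members, in no alpha or gamma member and in 0.501% of all promoters. GNCGCTGT was found in 17 of 20 gamma members, in 5 of 13 alpha members, in 1 beta member and in 4.35% of all promoters. These letters contain the core, were chosen after the promoters had been read, and were searched on both strands. CCCTC, a part of the CTCF consensus, stood in 14 of 47 members and 71.2% of all promoters, and GGNGGCAG, another part, in 1 member and 16.7% of all promoters. TATAA was found in 17 members and 20.4% of all promoters. A match of letters is no measured binding site.

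**Figure D1:**
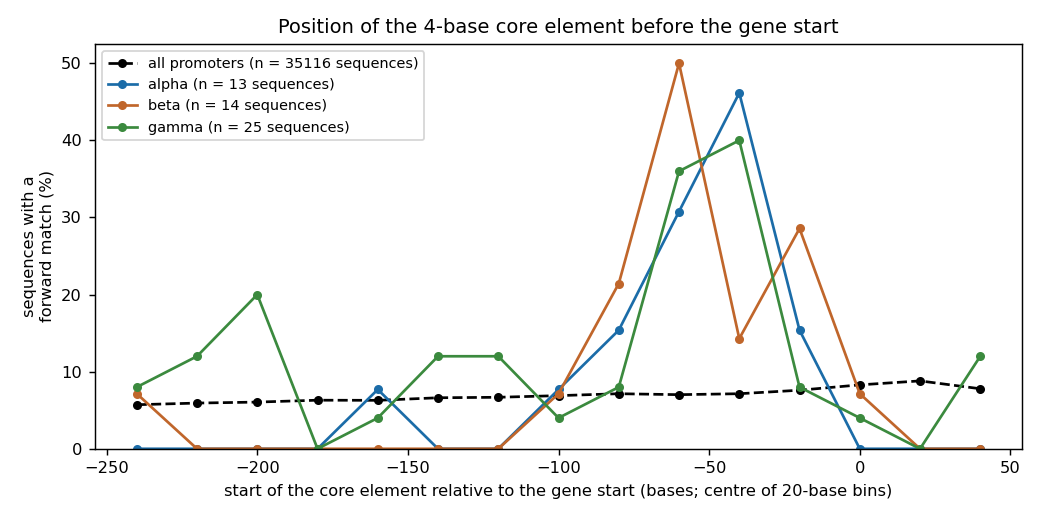
Share of promoter sequences (%) with a forward match to the 4-base core, against the start of the match relative to the gene start (bases, in bins of 20), for the alpha, beta and gamma clusters and for all promoters. The member curves are highest between 70 and 30 bases upstream, at 46.2% of alpha and 50.0% of beta sequences in their highest bin, while all promoters stay between 5.7% and 8.8%.

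To say whether a gene had message, the study's own rule was used. Genes that the study listed as seminal proteins unlikely to be expressed in the line set the baseline of an array as their mean raised by 2 SD. A gene's distance is its log2 level minus that baseline, and it counts as detected where the mean distance over the 4 arrays is above 0. The baseline was 9.47, 9.94, 10.69 and 10.32 log2 units on replicates 1 to 4. The controls were not alike. SPATA5 and SPATA13 stood close to the baseline, at -0.13 and -0.38 log2 units, and the other 8 matched controls between -3.58 and -2.85. Without these higher controls the baseline averaged 7.78 in place of 10.10 log2 units. Whether SPATA5 and SPATA13 are silent in the line was not tested. Probes differ in affinity, so a distance does not rank the amounts of transcripts.

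Message was detected for 2 of the 53 clustered protocadherins, against 52.7% of all genes. Both were gamma members, PCDHGC3 and PCDHGB5. The alpha cluster gave 0 of 15, the beta cluster 0 of 16 and the gamma cluster 2 of 22. The same members lay above the baseline on all 4 arrays, as did 45% of all genes, and the same were called by the limma test (adjusted p under 0.05 over all genes), as were 45.9% of all genes. No alpha or beta member had an unadjusted limma p under 0.05, and limma with a trend and robust prior also called 0 of each. Both tests are one-sided and all alpha and beta means lay below the baseline, so neither test could call them. These results therefore add nothing to the counts. In RNA of a whole culture, few cells with message and little message per cell cannot be told apart. Most members, 50 of the 53, were read by 1 target, a set of 3 probes for 1 transcript. RefSeq lists 2 or 3 transcripts for 38 members, so not every transcript had a target of its own.

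**Figure D2:**
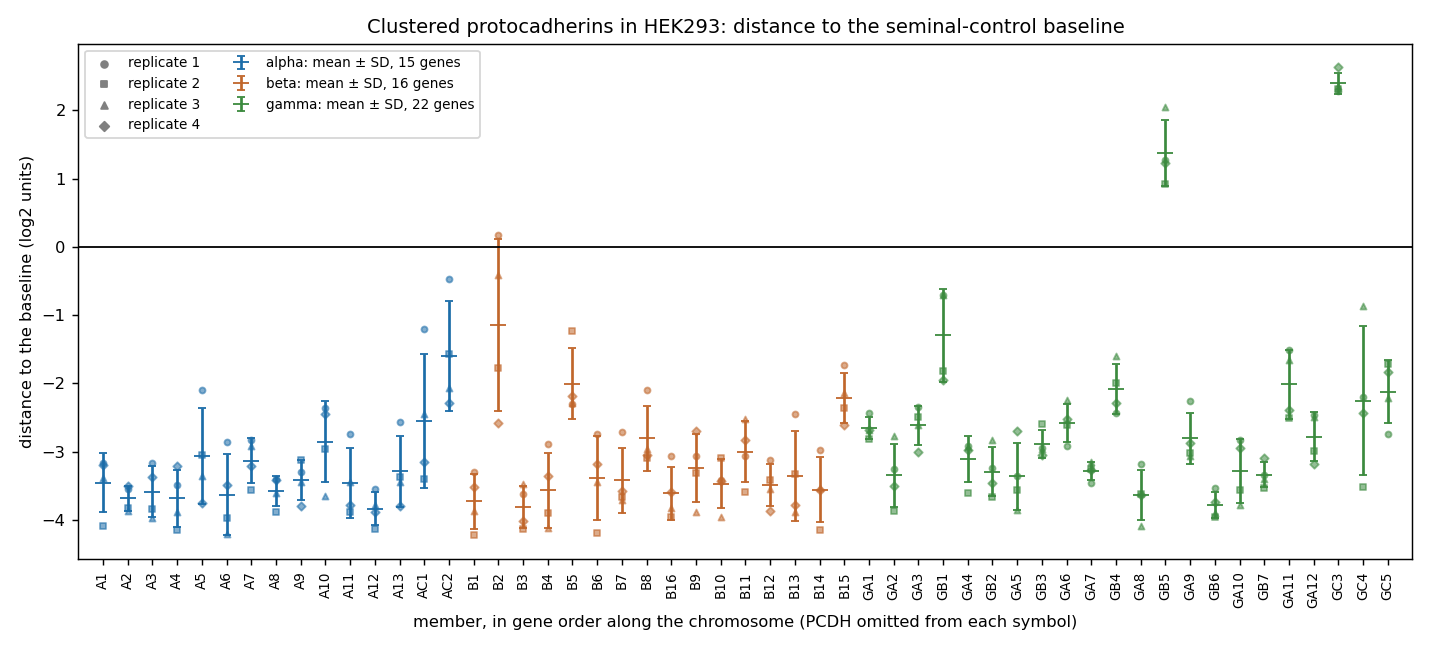
Distance to the baseline (log2 units) for the 53 clustered protocadherins in their order along the chromosome, with symbols for the 4 arrays and bars for mean ± SD. PCDHGB5 and PCDHGC3 stand above 0 on all arrays, and PCDHB2 crosses it on replicate 1 only.

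PCDHGC3 is a C-type gamma member. Its log2 level was 11.75, 12.25, 13.04 and 12.95 on replicates 1 to 4. Each value lay above the baseline of its array, and the mean distance was 2.39 ± 0.16 log2 units (SD, n = 4, limma adjusted p = 1.92e-11). The limma standard error was 0.351 for every gene, so this p does not rest on the SD of the gene itself. PCDHGC3 was 1 of 3 members represented by 2 targets, and these differed. Their distances moved in opposite directions between replicates 1 and 3, so the SD of the gene is smaller than that of either target. The target NM_002588 stood 4.14 ± 0.61 log2 units above the baseline (SD, n = 4), with distances of 4.97, 4.10, 3.50 and 3.98. The target NM_032402 stood at 0.65 ± 0.78 (SD, n = 4), with distances of -0.40, 0.52, 1.20 and 1.28. Taken from the lower target alone, PCDHGC3 was still detected but no longer passed the limma test (0.65, adjusted p = 0.0767). With the median of the probes in each target it stood at 1.06, and with the higher target alone at 4.10.

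Single probes show where the targets part. The probes of NM_002588 are named with closing numbers 4404, 4409 and 4414, and their mean levels were 13.92, 14.42 and 14.29 log2 units. Of the other target, the probe closing in 1665 read 10.42, 11.92, 13.43 and 13.14 on replicates 1 to 4. Those closing in 2636 and 2652 had mean levels of 7.08 and 7.10 and lay below the baseline on each array. Hence 4 of the 6 probes of PCDHGC3 were above the baseline on every array and 2 on none. If the closing number is a position along the transcript, the 3 probes of NM_002588 nearly coincide and amount to a single measurement. The closing number plus the 60 bases of a probe fitted within the annotated gene for 15 of 16 beta members, the exception being PCDHB16. It also fitted for 17181 of 17217 named genes. Nearly every gene passes, so this check cannot show that the number is a position. Whether the probes of NM_002588 lie in exons that all gamma transcripts share was not tested, because probe sequences were not used here.

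PCDHGB5 is an alternate gamma member of the B subfamily. Its log2 level was 10.74, 10.87, 12.75 and 11.56 on replicates 1 to 4, highest on replicate 3. The distances were 1.27, 0.93, 2.06 and 1.23, with a mean of 1.37 ± 0.48 (SD, n = 4, limma adjusted p = 0.000124). All 3 of its probes lay above the baseline on all 4 arrays, with mean levels of 10.93, 11.69 and 11.48. PCDHGB5 sat 0.05 log2 units above a baseline of 3 SD, where it no longer passed the limma test (adjusted p = 1.0), while PCDHGC3 stood at 1.08 there (adjusted p = 0.00953).

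Neighbours of PCDHGB5 in gene order are PCDHGA8 and PCDHGA9, alternate members of the A subfamily. They stood at -3.63 ± 0.37 and -2.81 ± 0.38 log2 units (SD, n = 4 for each), below the baseline on every array. PCDHGB4 lies on the far side of PCDHGA8 and has the promoter most like that of PCDHGB5. Among 1081 pairs of upstream stretches, aligned without gaps, this pair was the most alike, with 174 of 247 bases identical and 99 of the last 100 before the start. The median pair shared 32.9% of bases. Despite identical letters in the 30-base stretch around the core, PCDHGB4 read 7.04, 7.94, 9.09 and 8.03 log2 units. Its distance was -2.08 ± 0.37 (SD, n = 4), below the baseline on each array and for each of its 3 probes. Across replicates its levels were lowest on 1 and highest on 3, as were those of PCDHGB5. Transcripts of near-identical paralogs may share signal on long probes, which was not tested.

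The 250 bases before the start of these genes and of PCDHGC3 are given below on the forward strand, with each forward core in capitals. PCDHGB4 and PCDHGB5 hold 3 cores each, and PCDHGC3 holds 5.

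PCDHGB4, chr5:141387448-141387697: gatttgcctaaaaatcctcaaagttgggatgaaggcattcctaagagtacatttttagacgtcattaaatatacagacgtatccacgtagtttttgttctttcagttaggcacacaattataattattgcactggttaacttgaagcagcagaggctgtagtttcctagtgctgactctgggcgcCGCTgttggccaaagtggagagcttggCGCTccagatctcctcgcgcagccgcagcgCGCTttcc
PCDHGB5, chr5:141397697-141397946: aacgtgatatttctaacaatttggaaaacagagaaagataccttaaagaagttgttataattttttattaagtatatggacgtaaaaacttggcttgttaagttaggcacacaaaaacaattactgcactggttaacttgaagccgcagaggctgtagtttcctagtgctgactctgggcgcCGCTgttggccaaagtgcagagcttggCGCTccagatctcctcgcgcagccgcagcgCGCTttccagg
PCDHGC3, chr5:141475716-141475965: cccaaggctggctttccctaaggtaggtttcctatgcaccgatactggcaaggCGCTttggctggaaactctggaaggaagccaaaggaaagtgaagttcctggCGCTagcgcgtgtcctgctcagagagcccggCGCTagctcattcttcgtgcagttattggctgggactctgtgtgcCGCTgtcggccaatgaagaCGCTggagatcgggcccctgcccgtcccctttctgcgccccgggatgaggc

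The other gamma members gave no message above the baseline. The A subfamily had 0 of 12 members detected and the B subfamily 1 of 7, against 52.7% of all genes. Their median distances were -2.96 and -2.89 log2 units. PCDHGB1 came nearest from below, at -0.71, -1.82, -0.71 and -1.95 on replicates 1 to 4, with a mean of -1.30 ± 0.68 (SD, n = 4). Its probe closing in 1230 had a mean level of 9.84 and was above the baseline on 2 arrays, while the others, at 7.36 and 7.42, were above it on none. PCDHGA11 stood at -1.51, -2.50, -1.65 and -2.40, with a mean of -2.02 ± 0.51 (SD, n = 4). The lowest gamma member was PCDHGB6, at -3.78 ± 0.19 (SD, n = 4).

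**Figure D3:**
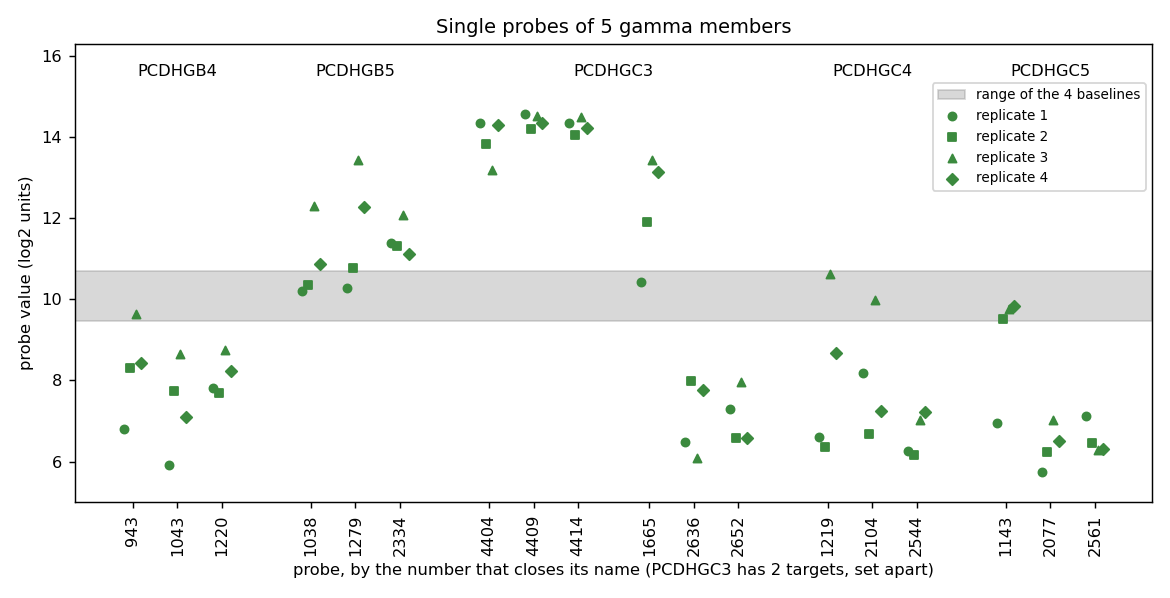
Log2 value of each probe of PCDHGB4, PCDHGB5, PCDHGC3, PCDHGC4 and PCDHGC5 on the 4 arrays, with the grey band spanning the 4 baselines (9.47 to 10.69 log2 units). All probes of PCDHGB5 and 4 of the 6 probes of PCDHGC3 lie above the baseline of their array on every replicate.

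The C-type members as a group, PCDHAC1, PCDHAC2, PCDHGC3, PCDHGC4 and PCDHGC5, had 1 of 5 detected, against 52.7% of all genes. Their median distance was -2.12 log2 units. PCDHGC4, whose variable exon follows that of PCDHGC3, read 7.27, 6.42, 9.83 and 7.89 log2 units, highest on replicate 3. Its distance was -2.25 ± 1.09 (SD, n = 4), the widest spread of any member after PCDHB2. PCDHGC5 stood at -2.74, -1.71, -2.21 and -1.83, with a mean of -2.12 ± 0.47 (SD, n = 4). Its probe closing in 1143 had a mean level of 9.02 and the others 6.38 and 6.54, all below the baseline on every array.

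Both alpha C-type members had higher mean distances than all 13 alternate alpha members. PCDHAC2 read 8.99, 8.37, 8.63 and 8.03 log2 units on replicates 1 to 4, below the baseline on each array. Its distance was -1.60 ± 0.81 (SD, n = 4). PCDHAC1 read 8.26, 6.53, 8.25 and 7.17, higher on replicates 1 and 3 than on the others, at a distance of -2.55 ± 0.98 (SD, n = 4). Its targets differed, at -1.92 ± 1.29 for NM_018898 and -3.19 ± 0.68 for NM_031882 (SD, n = 4 for each). By NM_031882 alone PCDHAC1 would lie below some alternate members, such as PCDHA10 at -2.86. Its higher rank thus rests on NM_018898. The probes of NM_018898 close in 4458, 4823 and 5167, about as high as those of the brighter PCDHGC3 target, with mean levels of 8.17, 8.29 and 7.84. Which exons they lie in was not tested.

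Alternate alpha members lay close together at the bottom of the range. Their distances ran from -3.84 for PCDHA12 to -2.86 for PCDHA10, with a median of -3.46 log2 units. PCDHA10 read 7.10, 6.98, 7.04 and 7.87, and PCDHA5 read 7.37, 6.89, 7.33 and 6.56. None of these 13 genes rose above the baseline on any array, and none of the 51 alpha probes had a mean above it.

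In the beta cluster, whose genes share no exons, each target reports its own gene apart from what close paralogs may add. PCDHB2 had the highest distance. Its levels were 9.65, 8.16, 10.28 and 7.75 log2 units on replicates 1 to 4, and its distances 0.18, -1.78, -0.41 and -2.58, with a mean of -1.14 ± 1.26 (SD, n = 4). It was the only member outside the detected pair to cross the baseline on any array, which it did on replicate 1. The members above the baseline numbered 3, 2, 2 and 2 on replicates 1 to 4, against 58.1%, 54.2%, 47.4% and 50.2% of all genes. Its probes had mean levels of 8.70, 9.81 and 6.81.

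PCDHB5 stood at -2.00 ± 0.52 and PCDHB15 at -2.21 ± 0.37 log2 units (SD, n = 4 for each). The former read 7.16, 8.71, 8.40 and 8.14 and the latter 7.73, 7.57, 8.55 and 7.71. In both, 1 probe stood above the others, with mean levels of 9.16 against 6.51 and 6.90 in PCDHB5 and 8.80 against 6.65 and 7.31 in PCDHB15. PCDHB8 followed at -2.81 ± 0.48 (SD, n = 4), with levels of 7.37, 6.84, 7.72 and 7.26. The remaining 12 beta members ran from -3.81 for PCDHB3 to -3.00 for PCDHB11. No beta probe had a mean above the baseline, nor did any alpha probe, while 7 of 69 gamma probes did, against 47.6% of all named probes.

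By medians, the gamma cluster lay above the others and still far below the array at large. The median member distance was -3.46 log2 units for alpha, -3.40 for beta and -2.79 for gamma, against 0.26 for all genes. Median gamma levels were 6.69, 6.93, 7.97 and 7.41 on replicates 1 to 4. Alpha medians were 6.61, 6.11, 7.25 and 6.90, and beta medians 6.53, 6.44, 7.14 and 6.93. The gamma median was thus the highest of the clusters on each of the 4 arrays, while alpha and beta changed places between arrays. Averaged over arrays, the medians were 7.25 ± 0.57 for gamma, 6.72 ± 0.48 for alpha and 6.76 ± 0.33 for beta (SD, n = 4 for each). With each array's baseline taken out, the median distances averaged -2.86 ± 0.13 for gamma, -3.39 ± 0.40 for alpha and -3.34 ± 0.28 for beta (SD, n = 4 for each), and no test over members was made.

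The 51 members that were not detected can be set beside genes thought to be silent in the line. These members and the 8 lower seminal controls were picked by low values on these arrays, so similar medians are partly built in. The highest of the 51 by mean level were PCDHB2 at 8.96, PCDHGB1 at 8.81 and PCDHAC2 at 8.51 log2 units. Median levels of the 51 members were 6.58, 6.42, 7.29 and 7.13 log2 units on replicates 1 to 4. Those of 364 olfactory receptor genes were 6.44, 6.27, 7.14 and 6.95, and those of the 8 lower seminal controls 6.40, 6.67, 7.24 and 7.03. All of these were higher on replicates 3 and 4 than on 1 and 2, as was the 10th percentile of all genes, at 6.44, 6.40, 7.14 and 7.05. Replicates 1 and 2 share 1 distribution of values and replicates 3 and 4 another. After quantile normalization over all 4 arrays the same 2 members were detected, against 52.5% of all genes.

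The count of members depended on where the baseline was set. With 1 SD in place of 2, PCDHB2 and PCDHGB1 joined the detected pair, against 64.3% of all genes. With 3 SD the pair was detected alone, against 39.1%. Without SPATA5 and SPATA13, the control genes with the highest levels, the baseline fell to 7.78 log2 units and 11 members were detected, against 74% of all genes. They were PCDHAC2 of the alpha cluster, PCDHB2, PCDHB5 and PCDHB15 of the beta cluster, and 7 gamma members, which were PCDHGB1, PCDHGB4, PCDHGB5, PCDHGA11, PCDHGC3, PCDHGC4 and PCDHGC5. With olfactory receptor genes as controls the count was 8, against 71.4% of all genes. None of the 13 alternate alpha members was detected under either. The pair was also detected alone with the mean or the median of log2 probe values (51.5% and 50.2% of all genes), with the higher or lower accession of a gene (53.1% and 51.9%) and under the trended limma test (44.9%). The same held on replicates 1 and 2 alone (55.9%) and on 3 and 4 alone (48.8%), and with replicate 1, 2, 3 or 4 left out (50.6%, 52.3%, 54.3% and 53.6%).

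Related gene lists were read against the 52.7% of all genes detected. Their calls use the main baseline and were not repeated with the lower ones. The non-clustered protocadherins, which lie outside these clusters, were also mostly below the baseline, with a median distance of -2.45 log2 units. Of 12 of them 1 was detected, PCDH7, at 2.01 ± 0.62 (SD, n = 4). PCDH19, a delta protocadherin chosen after its values were seen, read 1.53, -3.60, 0.29 and -2.72 relative to the baseline on replicates 1 to 4, the mean being -1.12 ± 2.43 (SD, n = 4). It was above the baseline on replicates 1 and 3. PCDHB2, PCDHAC1, PCDHGB1 and PCDHGA11 also had their higher distances there, as had other members such as PCDHGB5, PCDHGC4 and PCDHB15. PCDHGC3 and PCDHGB4 were among those that had not. The share of all genes with this order was not counted. The neurofilament gene NEFM, also picked after its values were seen, was higher on replicates 1 and 3, at 4.10, -1.62, 2.40 and -2.24. Of 12 classic cadherins and catenins, 7 were detected, a share near that of all genes. Among them were the adhesion protein N-cadherin, CDH2, at 4.59 ± 0.73, and beta-catenin, CTNNB1, at 4.93 ± 0.52 (SD, n = 4 for each).

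Of 20 matched regulators of the clusters, 16 were detected, against 52.7% of all genes, and the limma test called the same number. CTCF stood at 1.76 ± 0.77 log2 units and the cohesin subunits RAD21 and SMC3 at 4.16 ± 0.85 and 4.59 ± 0.68 (SD, n = 4 for each). The maintenance DNA methyltransferase DNMT1 stood at 3.55 ± 0.48, DNMT3B at 1.44 ± 0.62 and the histone methyltransferase SETDB1 at 3.37 ± 0.57 (SD, n = 4 for each). Those not detected were DNMT3A at -1.03 ± 0.53, PDS5B at -0.56 ± 0.77, and the DNA demethylases TET1 at -0.48 ± 0.54 and TET2 at -2.94 ± 0.51 (SD, n = 4 for each). These calls depend on the baseline. Leaving SPATA5 and SPATA13 out of the controls raised the median gene's distance by 2.33 log2 units. DNMT3A, PDS5B and TET1 lay nearer to the baseline than that, and TET2 farther. PDS5A, SMCHD1, WIZ and TET3 were not matched.

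Of 26 matched partners of protocadherin cytoplasmic ends and of enzymes that cut them, 23 were detected, against 52.7% of all genes, and 22 called by limma, against 45.9%. CYFIP2 was not matched. The sheddase ADAM10 stood at 4.38 ± 0.28 and the gamma-secretase subunit NCSTN at 4.36 ± 0.39 log2 units (SD, n = 4 for each). The focal adhesion kinase PTK2 stood at 3.70 ± 0.51, whereas its relative PTK2B stood at -1.96 ± 1.13 (SD, n = 4 for each). RET and NLGN1 were the others below the baseline, at -1.69 ± 0.47 and -0.33 ± 0.56 (SD, n = 4 for each). PTK2B, RET and NLGN1 all lay nearer to it than the shift of 2.33 log2 units without SPATA5 and SPATA13.

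**Figure D4:**
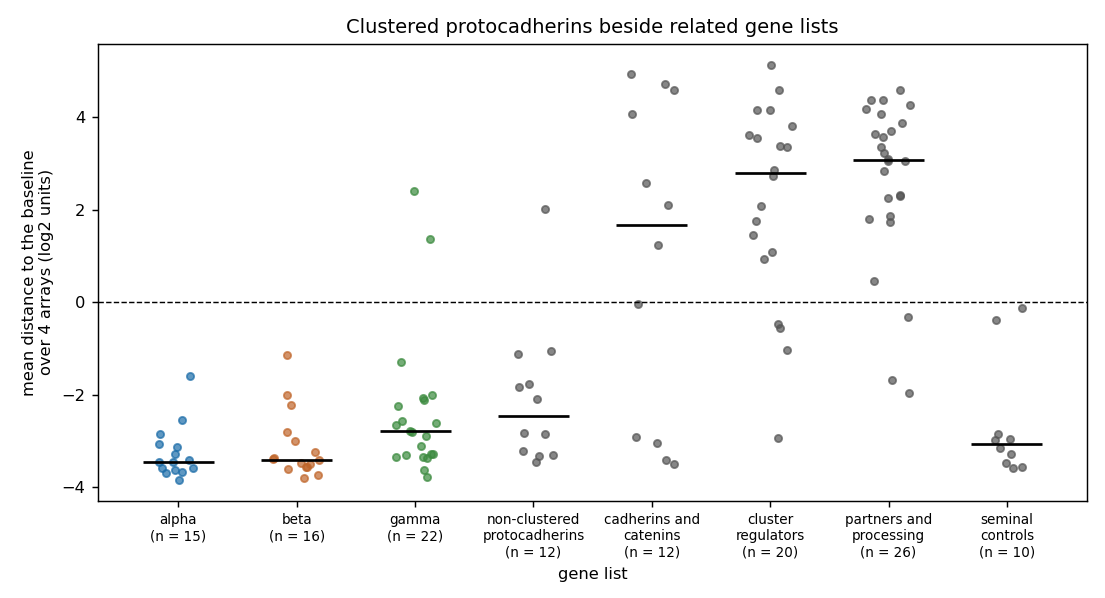
Mean distance to the baseline over 4 arrays (log2 units) for each gene of the 3 clusters and of related lists, with black lines at the medians. The cluster medians lie at -3.46, -3.40 and -2.79, near that of the seminal controls at -3.06, while those of cluster regulators and of partners lie at 2.80 and 3.07.

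Markers were checked against the label of kidney origin. Of 10 kidney epithelial markers 3 were detected, against 52.7% of all genes. They were the keratins KRT8 and KRT18 and the adhesion protein EPCAM. The kidney genes PAX2, PAX8, LHX1, CDH6, CDH16, UMOD and AQP1 lay below the baseline on each array. Leaving SPATA5 and SPATA13 out of the controls raised the median gene's distance by 2.33 log2 units. PAX2, LHX1, CDH16 and AQP1 lay nearer to the baseline than that, at -1.63, -1.44, -1.42 and -2.08. PAX8, CDH6 and UMOD lay farther, at -3.12, -3.53 and -2.41. Of 9 matched neuronal markers 5 were detected, NEFL, NEFM, INA, SYP and TUBB3, and 4 passed the limma test, shares near the 52.7% and 45.9% of all genes. The neuronal markers not detected were MAP2 at -0.34, SNAP25 at -1.40, ELAVL4 at -2.91 and STMN2 at -3.12 log2 units, and RBFOX3 was not matched. The summed level of the list was 101, 87.9, 100.5 and 89.8 log2 units on replicates 1 to 4, higher on replicates 1 and 3, with NEFM the most variable of its genes (SD of distance 3.08). The fibroblast list was also higher on these, at 40.2, 37.1, 43.5 and 38.5, while the kidney list ranged from 94.0 to 96.5. Of 5 fibroblast markers COL1A1 alone was detected, at 0.37 ± 1.19 log2 units (SD, n = 4, limma adjusted p = 0.30). Of 5 leukocyte markers 0 were detected, each being below the baseline on every array. Both counts stand against 52.7% of all genes. No leukocyte marker had an unadjusted limma p under 0.05, which the one-sided test fixes for means below the baseline. The part of these markers in the protocadherin values was not tested. Between pairs of arrays Pearson's r over genes, which are not independent replicates, ranged from 0.949 to 0.977. It was highest for replicates 2 and 4 (0.977) and for replicates 1 and 3 (0.971), while all other pairs lay between 0.949 and 0.959. The cause of this pairing was not tested.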

How the data were processed

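RNA of 4 untreated HEK293 cultures was measured on NimbleGen arrays with 60-base probes designed on the HG18 gene catalogue. The values deposited are on a log2 scale, with 71998 probes on each array. RMA is named in the submitters' processing notes, with no role given, and no raw intensities were used here. Replicates 1 and 2 had matching sorted values, as had replicates 3 and 4. Accessions were matched to RefSeq of GRCh38.p14, which named 19125 of 24000 targets. Probes of a target were averaged on the linear scale and returned to log2, and targets of a gene were then averaged. The baseline came from 10 matched of 11 listed seminal controls. The distance was tested one-sided against 0 with limma 3.58.1 in R 4.3.3, with Benjamini-Hochberg adjustment over 17217 genes, and the script was tested on simulated data. The prior made the standard error 0.351 for every gene, so a limma p does not reflect the gene's own SD over the arrays. All distances on an array also share 1 baseline, whose error the test did not model. With 4 arrays the smallest p of an exact sign-flip test is 0.0625. The members, lists and tests were chosen with earlier results of these data known. Values in full were given for the 4 members of each cluster with the highest mean distance and for those nearest the baseline. Further members and related genes were chosen after their values had been seen. Alternatives covered the summary of probes and targets, the baseline, the normalization, the test and the arrays used. No adjusted p over a list alone was computed.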

Additional observations from a re-analysis of the deposited data

Results flagged for a closer look

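Of 56 measures, the distances of 53 members and the medians of 3 clusters, 4 had an array whose gap to the nearest other array, divided by the range, exceeded Dixon's 95% critical value for 4 samples. Chance marks about 1 in 20. PCDHGA4 had a ratio of 0.923, with replicate 2 at -3.61 and the remaining arrays between -2.97 and -2.92. PCDHB5 had one of 0.890, with replicate 2 at -1.23 and the rest between -2.30 and -2.19. In PCDHB7 (0.871) replicate 1 stood at -2.71 and the rest between -3.71 and -3.59. In PCDHB8 (0.868) replicate 1 stood at -2.09 and the rest between -3.10 and -2.97. Replicate 1 had the lowest baseline, at 9.47. In levels before subtraction PCDHB7 and PCDHB8 read 6.76 and 7.37 on replicate 1, below their 6.98 and 7.72 on replicate 3. None of these genes was detected on any array.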

How the results depend on the processing

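The same 2 members, PCDHGC3 and PCDHGB5, were detected under every alternative run, alone except where the baseline was lowered. With 1 SD 4 members were detected, 1 of them beta, and PCDHB2 and PCDHGB1 stood at 0.17 and 0.0209. Without SPATA5 and SPATA13 the count was 11, with 1 alpha, 3 beta and 7 gamma members. There PCDHAC2 stood at 0.73, PCDHB2 at 1.18, PCDHB5 at 0.32, PCDHB15 at 0.11, PCDHGB1 at 1.03 and PCDHGA11 at 0.31. With olfactory receptor genes the count was 8, with 1 alpha, 2 beta and 5 gamma members, and PCDHAC2 stood at 0.49, PCDHB2 at 0.94, PCDHB5 at 0.0808, PCDHGB1 at 0.79 and PCDHGA11 at 0.0683. The cause in all these is the lower baseline itself. PCDHGB5 lost significance at 0.0535 with 3 SD, and PCDHGC3 at 0.65 from its lower accession, an alternative chosen after seeing the data. Over all alternatives PCDHGC3 ranged from 0.65 to 4.72 and PCDHGB5 from 0.0535 to 3.70. With 1 replicate left out at a time, PCDHGC3 stood between 2.32 and 2.43 and PCDHGB5 between 1.14 and 1.52, each past the limma threshold. On replicates 1 and 2 alone they stood at 2.30 and 1.10, and on replicates 3 and 4 alone at 2.49 and 1.65. No paired analysis was possible because the design holds a single group. The number of arrays limits the precision, and signal over background of single spots was not examined.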
